A study of Homo sapiens with 44 samples.

Results

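The cells described here are those of the arrest itself: the 4 libraries of 0 h, collected while thymidine still held the cells and before any washout, out of 44 libraries in the series. They come from IMR5/75, an established line of human neuroblastoma in which MYCN is amplified; its cells hold a hairpin RNA directed at MYCN and controlled by tetracycline. Tet plus cells (2 libraries) had received tetracycline, which switches the hairpin on, and Tet minus cells (2 libraries) had not; both arms had spent 18 h in thymidine, which stops DNA synthesis at the entry to S phase. The line, the hairpin construct and the thymidine are thus common to both arms. The labels used here do not give how long tetracycline was present before 0 h, and no library here combines tetracycline with another hairpin, so an effect of tetracycline itself cannot be told apart from that of the hairpin. The libraries labelled replicate 1 shared sequencing lane 8 and those labelled replicate 2 shared lane 4, and the arms were compared within these pairs. The comparison asks how gene expression differed between the arms before the cells were released.

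MYCN and its relative MYC are transcription factors that pair with MAX and bind the DNA sequence CACGTG (the E-box) in many promoters. MXD proteins and MNT compete for MAX and act as repressors at the same sites. In neuroblastoma, amplified MYCN is known for driving ribosome production, nucleotide and polyamine synthesis and the cell cycle, and for holding back the neuronal program of the sympathetic lineage from which the tumour arises.

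Gene counts totalled 23979347 and 14570027 in the Tet plus libraries of replicates 1 and 2, and 21123116 and 18940272 in the Tet minus libraries, against 10906524 to 25313546 over all 44. Levels are given as counts scaled to a common library total (CPM, with TMM factors), in the order Tet plus and Tet minus of replicate 1, then Tet plus and Tet minus of replicate 2. A gene is called where its adjusted p was below 0.05 over the 14534 genes tested, with replicate pairs as a block and the spread shared over all 44 libraries, n = 2 in each arm. Fold changes are log2 values, Tet plus minus Tet minus, with their standard error (SE). A call is said to have held where it also passed without the pairing and with each of the 4 libraries left out in turn. The same sign in both pairs was required as well. In all 46 calls held, 13 higher and 33 lower. For the other called genes named, each adjusted p that ended the call is given. Leaving out either library of a pair leaves the difference to the other pair, so both are written together as "without replicate 1" or "without replicate 2", with the higher p.

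Neuroblastoma markers were expressed, with sums of 1520 to 1790 CPM in Tet plus and 1050 to 1330 CPM in Tet minus libraries. Of the 10 markers, 1 (STMN2) was at 0 in all 4 libraries and TH was at most 0.0926 CPM. Epithelial and leukocyte markers were low, at most 1.72 CPM in sum for 10 epithelial and 3.32 CPM for 10 leukocyte markers. Of these, 3 and 4 were at 0 in all 4 libraries. The 7 endothelial markers summed to 4.92 to 5.86 CPM in Tet plus and 3.93 to 4.40 CPM in Tet minus libraries, and the 9 Schwann cell markers to 17.5 to 23.6 and 15.4 to 21.3 CPM. The 22 mesenchymal markers, several of which neuroblastoma lines themselves express, summed to 1360 to 1830 CPM in Tet plus and 1310 to 1720 CPM in Tet minus libraries. These sums were as high as those of the neuroblastoma markers, so the sums alone do not tell the 2 identities apart. The spike-in (ERCC) share of counts was 1.05% in Tet plus and 0.984% in Tet minus for replicate 1, and 3.48% and 3.21% for replicate 2. Within each pair the Tet plus share was the higher, by 0.10 and 0.12 on the log2 scale. Small nucleolar RNA rows took 0.348% and 0.224% of gene counts in the Tet plus and Tet minus libraries of replicate 1, and 0.376% and 0.474% in those of replicate 2, so that this summed share was higher in Tet plus in one pair and lower in the other. Of 119 tested SNORD rows (box C/D small nucleolar RNAs), 91 had negative values. The medians of all 119 were -0.08 in replicate 1 and -0.63 in replicate 2. In this set 10 were called lower (8.4%, against 5.15% of all genes tested) and none higher. Without the pairing 1 was called lower, and with any 1 library left out none was.

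Promoters of 4 genes named below are shown because they carry, or lack, the site that MYCN recognises. Each is the stretch of 250 bases before a RefSeq start (GRCh38.p14), 5′ to 3′ on the gene's strand, and CACGTG is in capitals. UTP20 (chr12:101279855-101280104, plus strand), SLC38A5 (chrX:48470261-48470510, minus strand) and SLC7A5 (chr16:87869508-87869757, minus strand) were lower in Tet plus cells, and YPEL2 (chr17:59331405-59331654, plus strand) was higher.
UTP20: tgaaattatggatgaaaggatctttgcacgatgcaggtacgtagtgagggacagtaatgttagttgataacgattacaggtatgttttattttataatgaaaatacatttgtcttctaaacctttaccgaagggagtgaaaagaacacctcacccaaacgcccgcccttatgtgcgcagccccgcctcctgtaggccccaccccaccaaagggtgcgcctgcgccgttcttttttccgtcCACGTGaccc
SLC38A5: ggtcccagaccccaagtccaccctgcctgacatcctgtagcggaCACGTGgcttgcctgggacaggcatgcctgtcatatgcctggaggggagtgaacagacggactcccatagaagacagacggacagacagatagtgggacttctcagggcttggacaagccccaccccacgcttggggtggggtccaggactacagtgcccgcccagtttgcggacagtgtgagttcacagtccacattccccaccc
SLC7A5: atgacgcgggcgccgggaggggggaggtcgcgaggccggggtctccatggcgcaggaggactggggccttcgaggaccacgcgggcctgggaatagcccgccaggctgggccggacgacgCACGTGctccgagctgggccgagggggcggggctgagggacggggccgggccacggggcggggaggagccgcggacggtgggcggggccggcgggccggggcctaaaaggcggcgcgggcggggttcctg
YPEL2: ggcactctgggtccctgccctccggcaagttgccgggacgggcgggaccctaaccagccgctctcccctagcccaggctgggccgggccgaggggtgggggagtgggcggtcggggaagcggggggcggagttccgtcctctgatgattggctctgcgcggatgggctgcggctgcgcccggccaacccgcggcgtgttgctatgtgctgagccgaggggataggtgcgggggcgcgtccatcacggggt
The site began 10 bases before the start in UTP20, 130 bases before it in SLC7A5 and 206 bases before it in SLC38A5, and YPEL2 had none in its window. CACGTG reads the same on both strands. Over windows of 300 bases (250 before to 50 after the start), 10936 of the 14534 tested genes were matched to RefSeq and had a window. The site was in 18.5% of the 811 windows of genes called lower, in 5.28% of the 872 windows of genes called higher and in 9.28% of the 16155 windows of all matched genes. Of the 98 windows of genes for ribosome assembly, described below, 35.7% held it. These shares are a description without a test, and a match of letters is not evidence of binding.

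MYCN RNA itself was hardly different between the arms at this time. It stood at 1012 and 1091 CPM in the Tet plus and Tet minus libraries of replicate 1, and at 938 and 970 CPM in those of replicate 2. Tet plus was the lower library in each pair, but the arms overlapped, since the Tet plus library of replicate 1 lay above the Tet minus library of replicate 2. The difference was -0.08 (SE 0.104, 95% interval -0.31 to 0.15), with an adjusted p of 0.704. At 3 to 14 h after release the mean difference was -0.31, and the difference between 0 h and that mean was 0.23 (SE 0.112, adjusted p = 0.809). The files hold RNA counts, and MYCN protein was not measured in them. Of the other members of the MYC network, 3 of 11 rose and none fell. MXD4, a MAX partner that represses, stood at 197 and 98.3 CPM in replicate 1 and at 180 and 100 CPM in replicate 2. Both Tet plus libraries were above both Tet minus libraries, and the rise was 0.92 (SE 0.149, adjusted p = 0.000674; 0.0554 without replicate 1). MXD1 rose by 0.46 (adjusted p = 0.034; 0.193 without the pairing, 0.3 without replicate 1, 0.223 without replicate 2) and MXD3 by 0.58 (adjusted p = 0.035; 0.377, 0.523 and 0.0961). MAX (-0.21), MXI1 (-0.18), MGA (-0.30), MLX (-0.04), MLXIP (-0.31), MNT (-0.01), MLXIPL (0.33) and MYC (0.67) did not pass the threshold, and the signs of MNT and MLX changed with the library left out. MYC was at most 0.511 CPM in any of the 4 libraries. MGA was nearest to it, with an adjusted p of 0.0509.

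**Figure D1:**
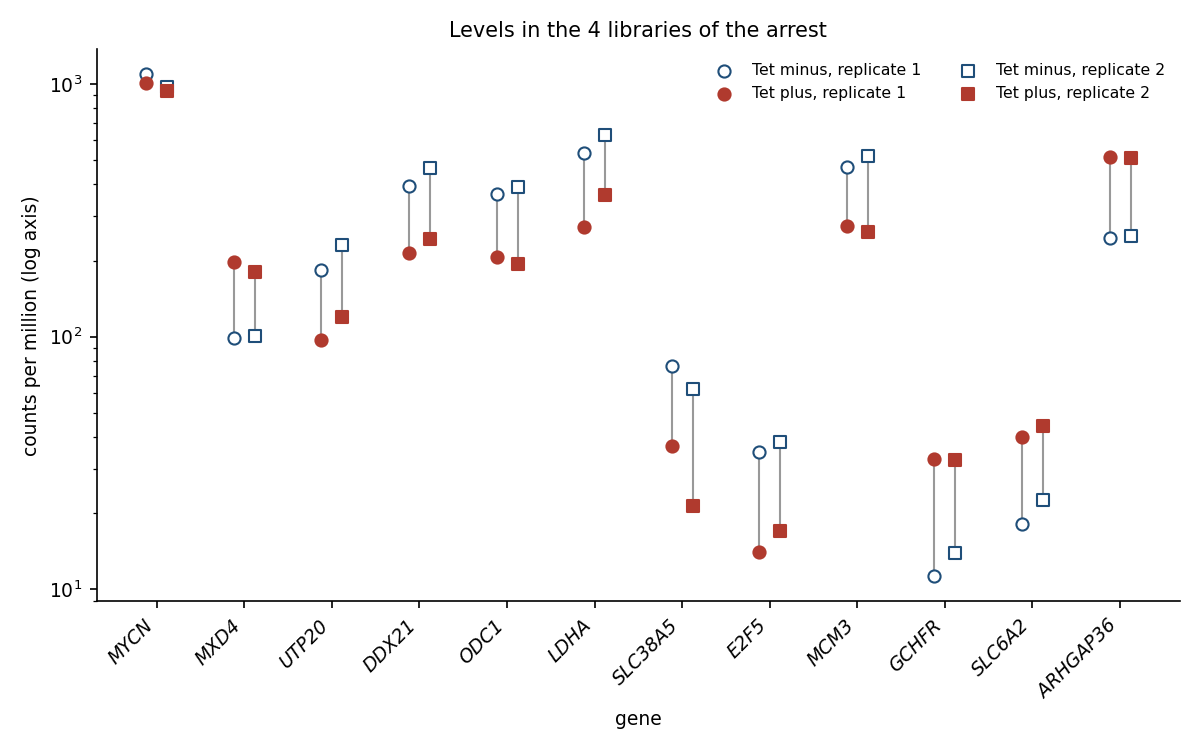
CPM (log axis) of 12 genes in the 4 libraries of 0 h; open symbols are Tet minus, filled symbols Tet plus, circles replicate 1, squares replicate 2, and a line joins the libraries of a pair. The MYCN symbols nearly coincide, between 938 and 1091 CPM, while the 2 arms do not overlap for the other 11 genes. Those 11 genes were picked from calls made on these same libraries, which favour such a gap, so it is not separate evidence.

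Across the genome, 694 genes were called higher in Tet plus cells (4.78% of genes tested) and 749 lower (5.15%). These shares are the background for the list counts given here. The median difference of all tested genes was 0.01, and a difference of 2-fold or more was seen in 105 of the higher and 35 of the lower genes. The called differences were mostly modest, with a median size of 0.55 on the log2 scale. Among called genes, 89.7% had arms that did not overlap in the 4 libraries. A lack of overlap in a called gene is therefore a description and not separate evidence. The 2 pairs gave related differences, with r = 0.56 across the 10183 genes whose log2 CPM averaged at least 3; this r is across genes, which are not independent replicates. Without the pairing, 82 genes were higher (0.564%) and 146 lower (1%). Leaving out either library of replicate 1 left 122 higher and 156 lower, and either of replicate 2 left 82 and 68. With the 4 libraries fitted alone and scaled to the ERCC rows, 172 were higher and 443 lower, a share of 28% higher against 48.1% in the main comparison. With all 44 libraries scaled to the ERCC rows, 1 gene was higher and none lower, and 234 genes had an unadjusted p under 0.05 in edgeR. The median of the 102 ribosome assembly genes was -0.4959 in this fit, against -0.4975 in the main comparison. Of 45 list medians, 1 changed sign. Tet plus libraries of 16 to 22 h, which entered this fit, had ERCC shares of 0.0543% to 0.376%, against 0.736% to 5.85% in the others. Why so few genes were called in this fit was not tested. The fits that share neither the pairing nor the other times (the 4 libraries alone, no block) called no gene in edgeR, with 1343 genes at an unadjusted p under 0.05.

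**Figure D2:**
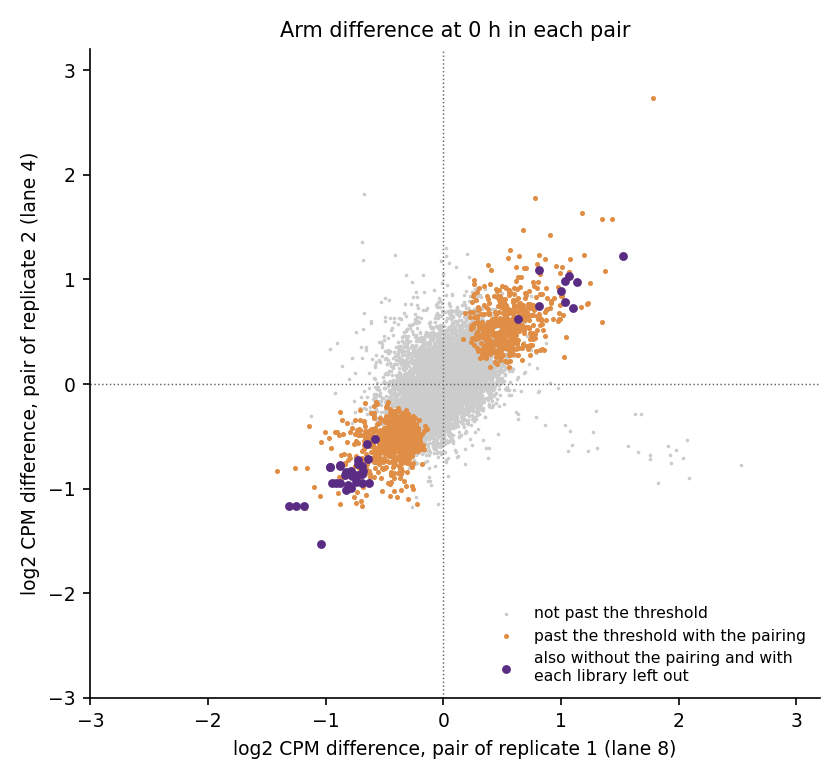
Log2 CPM difference, Tet plus minus Tet minus, in the pair of replicate 1 (x axis) and of replicate 2 (y axis) for genes whose log2 CPM averaged at least 3; orange points are called, and purple points are the 43 calls of these that held. Called genes lie in the upper right and lower left, and the purple points lie along the diagonal of equal differences. Orange and purple points were picked by tests on these same pairs, which favour such places, so their position is not separate evidence of agreement. Outside the axes falls 1 gene.

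Genes that build ribosomes were lower in Tet plus cells, most of them past the threshold. Of 102 proteins of the small subunit processome and of large subunit assembly, which cut, fold and modify ribosomal RNA in the nucleolus, 68 fell and none rose, and 101 of the 102 had negative values, with a median of -0.50. Without the pairing 33 fell, and with 1 library left out 12 to 24. UTP20, a scaffold of the small subunit processome whose promoter is shown above, stood at 97.3 and 183 CPM in replicate 1 and at 119 and 230 CPM in replicate 2. Both Tet plus libraries were below both Tet minus libraries, and the fall was by 0.93 (SE 0.112, adjusted p = 5.74e-05), a call that held. The same processome's WDR3 fell by 0.82, the helicase DHX37 by 0.83 and WDR43 by 0.73; the first 2 calls held and that of WDR43 ended without the pairing (adjusted p = 0.085). On the large subunit side, the helicase DDX31 fell by 0.61, a call that held. NOC3L fell by 0.83, MAK16 by 0.80 and EBNA1BP2 by 0.65, and these calls ended without replicate 2 (adjusted p 0.098, 0.0576 and 0.111).

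DDX21, a nucleolar helicase that couples ribosomal RNA transcription to processing, stood at 215 and 395 CPM in replicate 1 and at 242 and 467 CPM in replicate 2. The arms did not overlap, and it fell by 0.91 (SE 0.131, adjusted p = 0.00026), a call that held. The small nucleolar RNP core list had 11 of 19 members lower and none higher, with a median of -0.46. Without the pairing 3 fell, and with 1 library left out 2 to 7. The list holds proteins of the particles that methylate and pseudouridylate ribosomal RNA, along with assembly factors and other nucleolar proteins. NOLC1, a nucleolar chaperone of these particles, fell by 0.72 and the pseudouridine synthase DKC1 by 0.55, and both calls held. NPM1, the abundant nucleolar phosphoprotein, fell by 0.76 (0.0756 without the pairing, 0.082 without replicate 2), and NOP58 by 0.55 (0.184 without the pairing, 0.0554 without replicate 1, 0.13 without replicate 2). PUS7, another pseudouridine synthase, fell by 0.84, a call that held. A list of 19 noncoding RNAs and small nucleolar RNA hosts also holds RMRP, RPPH1, MALAT1 and NEAT1, which carry no such RNA in an intron and were not called. In it 7 fell, all of them SNHG host transcripts, and none rose (2 without the pairing, 1 to 2 with 1 library left out). SNHG4 had the lowest value of the list, with 9.01 and 20.7 CPM in replicate 1 and 10.0 and 22.6 CPM in replicate 2, and fell by 1.19 (SE 0.158, adjusted p = 0.000142), a call that held. SNHG3 fell by 0.80 (0.0564 without replicate 1). The share of small nucleolar RNA rows, given above, was higher in the Tet plus library of replicate 1 and lower in that of replicate 2. Whether reads of a host and of the RNAs in its introns share counts is not known, because the annotation of the counting is not given in the sources used here.

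Of 35 genes for the polymerases that transcribe ribosomal and transfer RNA genes and for the factors that bring them there, 12 fell and 1 rose (4 and 0 without the pairing; 3 to 5 and 0 with 1 library left out). Of the 19 polymerase subunits among them 10 fell and POLR3GL rose by 0.56 (0.0737 without the pairing, 0.1 without replicate 1, 0.18 without replicate 2). Of the 16 factors 2 fell, GTF3A by 0.62 (0.153 without the pairing, 0.66 without replicate 2) and GTF3C6 by 0.46 (0.376 without the pairing, 0.129 without replicate 1, 0.437 without replicate 2). POLR3G, an RNA polymerase III subunit typical of undifferentiated cells, stood at 8.18 and 19.6 CPM in replicate 1 and 8.62 and 19.5 CPM in replicate 2. It fell by 1.22 (SE 0.174, adjusted p = 0.000243), a call that held. The RNA polymerase I subunits POLR1B and CD3EAP (POLR1G) fell by 0.74 and 0.82, and both calls held. Of 76 cytosolic ribosomal protein genes none was called in either direction, while 68 had negative values, with a median of -0.13. Their medians were -0.0010 in replicate 1 and -0.26 in replicate 2, and at 3 to 14 h, with a median of -0.13, 35 were called lower and 1 higher. Mitochondrial ribosomal proteins fell in 11 of 75 cases (14.7%, against 5.15% of all genes tested), with a median of -0.27. Without the pairing 2 fell, and with 1 library left out 0 to 5. MRPL3 fell by 0.61 (0.143 without replicate 2). Of 22 aminoacyl-tRNA synthetase genes 6 fell, and of 42 translation factors 8 fell, and none of either list rose. No call of these 2 lists passed without the pairing, and 0 to 1 and 0 did with 1 library left out. IARS, which charges isoleucine transfer RNA, fell by 0.53 (0.175 without the pairing, 0.208 without replicate 2), and the ribosome recycling factor ABCE1 by 0.66 (0.103 without the pairing, 0.0601 without replicate 1, 0.169 without replicate 2). Nuclear import and mRNA handling genes fell in 9 of 46 cases and chaperones in 10 of 24, with none higher (3 and 1 without the pairing, 0 to 3 and 1 to 2 with 1 library left out). HSPA8 fell by 0.64 (0.0777 without replicate 2) and the mitochondrial chaperonin HSPD1 by 0.60 (0.0791 without the pairing).

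**Figure D3:**
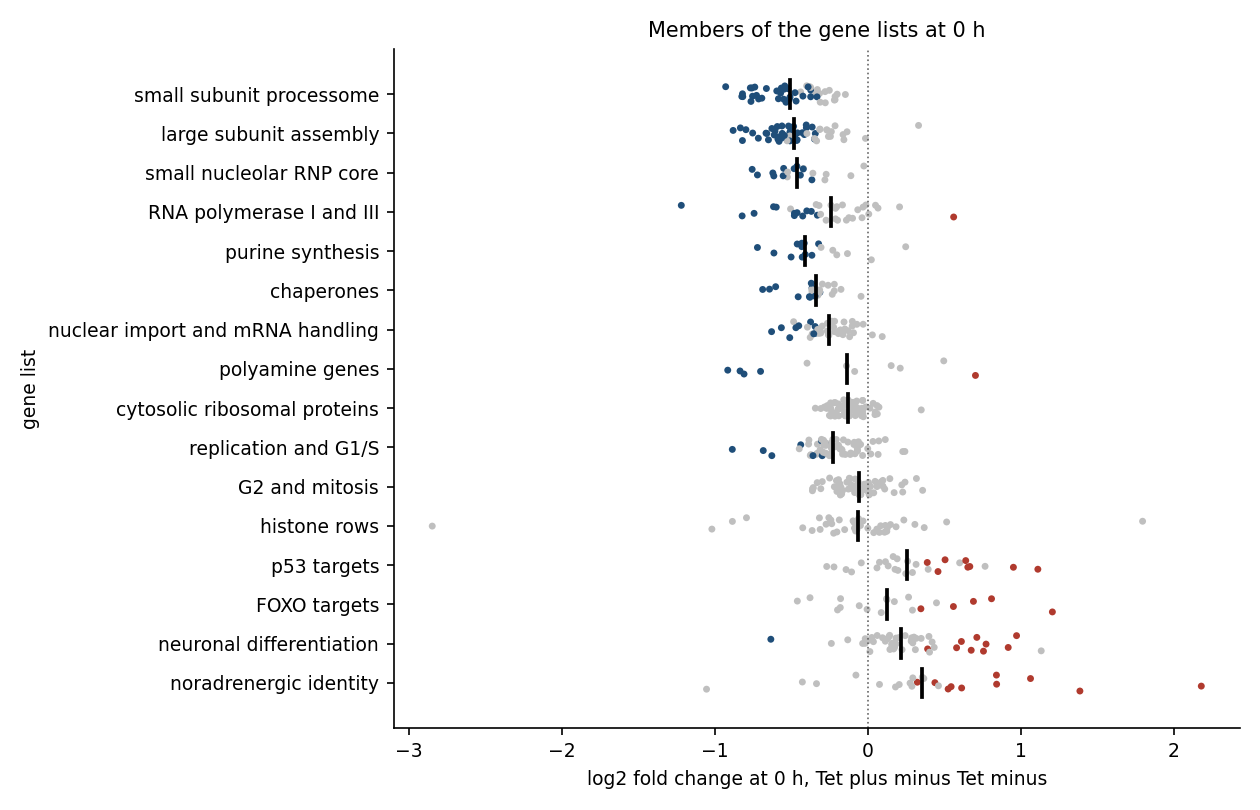
Log2 fold change at 0 h (x axis) of each tested member of 16 gene lists (rows); blue points were called lower in Tet plus, red points called higher, grey points neither, and the black bar is the list's median. Both ribosome assembly lists lie almost wholly left of 0, with medians of -0.51 and -0.48, while the cytosolic ribosomal proteins have no called member and the noradrenergic list has a median of 0.36.

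Among metabolic genes, most of those called were lower, and the share called was largest for purine synthesis. Of 17 purine synthesis genes 11 fell and none rose, with a median of -0.41, though 2 passed without the pairing and 0 to 2 with 1 library left out. PPAT, which commits the pathway, fell by 0.72 (0.079 without the pairing, 0.0801 without replicate 2), and the nucleoside diphosphate kinase NME1 by 0.62 (0.32 without replicate 2). Of 25 pyrimidine and deoxynucleotide genes 2 fell (8%, against 5.15% of all genes tested), among them NME1, which the purine list counts as well. Without the pairing 1 fell, and with 1 library left out 0 to 1. ODC1, the rate-limiting enzyme of polyamine synthesis, stood at 207 and 367 CPM in replicate 1 and at 194 and 392 CPM in replicate 2. The arms did not overlap, and it fell by 0.92 (SE 0.113, adjusted p = 7.08e-05), a call that held. AMD1, which makes the aminopropyl donor of the same pathway, fell by 0.84 and held. MTAP, which salvages its by-product, fell by 0.81 (0.216 without the pairing), and the spermidine synthase SRM by 0.70 (0.427 without the pairing, 0.353 without replicate 1, 0.0964 without replicate 2). In all, 4 of 11 polyamine genes fell and 1 rose (2 and 0 without the pairing, 3 and 0 with 1 library left out). ODC1 lies on the same chromosome arm as MYCN, and DDX1 and NBAS, the immediate neighbours of MYCN that are amplified with it, differed by -0.16 and 0.05, without a call.

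LDHA, which turns pyruvate into lactate, stood at 272 and 532 CPM in replicate 1 and at 363 and 627 CPM in replicate 2. It fell by 0.88 (SE 0.109, adjusted p = 7.08e-05), a call that held, and was 1 of 4 called among 20 glycolysis genes, all lower (1 without the pairing, 1 to 2 with 1 library left out). The lactate carrier SLC16A1 fell by 0.56 (0.0939 without the pairing, 0.179 without replicate 2). Amino acid transporters fell in 6 of 18 cases and rose in 1 (2 and 0 without the pairing, 1 to 2 and 0 with 1 library left out). SLC38A5, a glutamine and serine transporter with CACGTG before its start, stood at 36.9 and 76.2 CPM in replicate 1 and at 21.4 and 62.0 CPM in replicate 2. It had the lowest value of any call that held among genes whose log2 CPM averaged at least 3, a fall by 1.28 (SE 0.137, adjusted p = 1.52e-05). SLC7A5, the large neutral amino acid transporter, fell by 0.92 (0.0855 without replicate 2). Of 17 serine and one-carbon genes 3 fell, among them MTHFD1L by 0.58 (0.248 without the pairing, 0.063 without replicate 1); no call of this list passed without the pairing. Cholesterol synthesis genes were lower in 6 of 24 cases and higher in 1, with HMGCS1 down by 0.57 (0.0677 without the pairing, 0.0746 without replicate 1). Without the pairing 1 of these was lower and none higher. Mitochondrial respiration genes fell in 3 of 38 cases (7.89%, against 5.15% of all genes tested; 1 without the pairing, 0 to 2 with 1 library left out).

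Cell cycle genes differed less evenly between the arms. Of 64 genes of G2 and mitosis none was called, with a median of -0.06. None of the 45 tested histone rows was called either; these near-identical genes can share reads. Of 65 genes of replication and G1/S 8 fell (12.3%, against 5.15% of all genes tested) and none rose, with a median of -0.23. Without the pairing 1 fell, and with 1 library left out 1 to 2. MCM3, a subunit of the replicative helicase, stood at 273 and 470 CPM in replicate 1 and at 261 and 518 CPM in replicate 2. The arms did not overlap, and it fell by 0.89 (SE 0.0994, adjusted p = 2.17e-05), a call that held. ORC2, a subunit of the origin recognition complex, fell by 0.69 (0.07 without the pairing, 0.268 without replicate 2). Among 24 G1 cyclins, CDK inhibitors and their partners, 5 rose and 4 fell (1 and 3 without the pairing, 1 to 3 and 2 with 1 library left out). E2F5, a pocket-protein-bound E2F, stood at 14.1 and 35.1 CPM in replicate 1 and 17.0 and 38.4 CPM in replicate 2, and fell by 1.25 (SE 0.125, adjusted p = 1.52e-05), a call that held. CDK4, which drives passage through G1, fell by 0.61 (0.0691 without replicate 1).

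Some inhibitors of the cycle and some p53 targets rose, though 20 of 28 p53 targets were not called. CDKN1A, the p21 inhibitor, stood at 460 and 265 CPM in replicate 1 and at 352 and 247 CPM in replicate 2. Both Tet plus libraries were above both Tet minus libraries, and it rose by 0.65 (SE 0.121, adjusted p = 0.0019; 0.0581 without the pairing, 0.115 without replicate 1). CCNG2, an atypical cyclin linked to cell cycle exit, rose by 0.69 (0.13 without replicate 2). Of 28 p53 targets 8 rose and none fell, with a median of 0.25 (1 without the pairing, 1 to 2 with 1 library left out). TP53INP1, which promotes p53 activity and autophagy, stood at 109 and 61.8 CPM in replicate 1 and at 151 and 71.2 CPM in replicate 2, and rose by 0.95 (SE 0.122, adjusted p = 0.000109), a call that held. In the BCL2 family 3 of 14 genes rose (21.4%, against 4.78% of all genes tested) and 1 fell (7.14%, against 5.15%). No call of this family passed without the pairing or with any 1 library left out. The death-promoting members BBC3, BMF and HRK rose by 1.11, 1.08 and 0.84, and the death-promoting BID fell by 0.40. The BBC3 call ended without the pairing (0.321), without replicate 1 (0.11) and without replicate 2 (0.0723), and likewise those of BMF (0.577, 0.0793 and 0.155), HRK (0.186, 0.0734 and 0.587) and BID (0.128, 0.0667 and 0.484). Of 19 FOXO targets 5 rose and none fell (2 without the pairing, 2 with 1 library left out). These lists share called genes and are not independent. CDKN1A is in the G1 and p53 lists, and CCNG2 in the G1 and FOXO lists. BBC3 is in the p53 and BCL2 lists, and PINK1 in the FOXO and lysosome lists. PIK3IP1, an inhibitor of phosphoinositide 3-kinase, rose by 1.21 (0.0721 without the pairing), and the mitophagy kinase PINK1 by 0.81 (0.0528 without replicate 1). Lysosome and autophagy genes rose in 7 of 63 cases (11.1%, against 4.78% of all genes tested) and fell in 2 (3.17%, against 5.15%). Without the pairing 3 of these rose and 1 fell, and with 1 library left out 1 to 5 rose and none fell. The autophagy receptor OPTN rose by 1.01 (0.0733 without replicate 1).

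The noradrenergic program of the sympathetic lineage was higher in Tet plus cells. Of 23 tested genes of this list, which holds the enzymes, transporters and transcription factors of noradrenaline cells, 10 rose and none fell, with a median of 0.36 (3 without the pairing, 5 to 6 with 1 library left out). GCHFR, which regulates synthesis of the cofactor used to make catecholamines, stood at 32.7 and 11.3 CPM in replicate 1 and at 32.6 and 13.9 CPM in replicate 2. Both Tet plus libraries were above both Tet minus libraries, and it rose by 1.39 (SE 0.144, adjusted p = 1.52e-05), a call that held. SLC6A2, the noradrenaline transporter, stood at 40.1 and 18.2 CPM in replicate 1 and 44.4 and 22.5 CPM in replicate 2, and rose by 1.06 (SE 0.117, adjusted p = 1.72e-05), a call that held. DBH, which turns dopamine into noradrenaline, stood at 30.8 and 8.89 CPM in replicate 1 and at 17.0 and 2.47 CPM in replicate 2. Both Tet plus libraries were again above both Tet minus libraries, and the replicates differed much in level. DBH rose by 2.18 (SE 0.292, adjusted p = 0.000142; 0.473 without the pairing). CHGA, the chromogranin of secretory granules, rose by 0.84 (0.118 without the pairing), and the lineage factor PHOX2A by 0.61 (0.71 without the pairing, 0.232 without replicate 2). Of the 8 tested neuroblastoma markers, some of which are also in the noradrenergic list, 5 rose and none fell (0 without the pairing, 2 to 3 with 1 library left out).

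Neuronal genes rose in 9 of 50 cases and fell in 1, with a median of 0.21 (1 and 0 without the pairing, 0 to 4 and 0 with 1 library left out). CADPS, which primes dense-core vesicles, rose by 0.97 (0.0504 without replicate 2). DCX, the microtubule protein of young neurons, rose by 0.92 (0.609 without the pairing, 0.26 without replicate 2), and the adhesion molecule L1CAM by 0.76 (0.7 without the pairing, 0.192 without replicate 2). Of 14 neuroblastoma receptors 3 rose and none fell, and no call passed without the pairing. ALK, a receptor tyrosine kinase, rose by 0.67 (0.622 without the pairing, 0.0889 without replicate 1, 0.0604 without replicate 2). LIN28B, an RNA-binding protein that blocks let-7 microRNAs, fell by 0.54 (0.182 without the pairing, 0.092 without replicate 1, 0.209 without replicate 2). Interferon response genes were called in 2 of 17 cases, both higher (11.8%, against 4.78% of all genes tested). All 17 had positive values, with a median of 0.42. Without the pairing 1 call passed, and with any 1 library left out none did. STAT2 rose by 0.38 (0.203 without replicate 1, 0.156 without replicate 2) and IRF9 by 0.66 (0.124 without the pairing, 0.133 without replicate 1, 0.134 without replicate 2). Immediate early genes rose in 4 of 24 cases (16.7%, against 4.78% of all genes tested), with a median near 0. JUN rose by 0.46 (0.0669 without the pairing, 0.107 without replicate 1). No call of this list passed without the pairing.

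Several of the calls that held belong to none of these lists, with PDGFRA the exception among those named here. ARHGAP36, which lowers protein kinase A activity, stood at 516 and 246 CPM in replicate 1 and at 511 and 251 CPM in replicate 2, and rose by 1.05 (SE 0.111, adjusted p = 1.52e-05). C1orf187 (DRAXIN), a secreted axon guidance protein, rose by 1.02, the zinc finger gene ZSCAN18 by 0.96, PBXIP1 by 0.92, SYTL3 by 0.91, YPEL2 by 0.78 and C14orf132 by 0.63. RDH11, a retinol dehydrogenase, stood at 57.6 and 111 CPM in replicate 1 and at 60.5 and 117 CPM in replicate 2, and fell by 0.95 (SE 0.0995, adjusted p = 1.52e-05). The homeobox repressor TGIF2 fell by 0.88, the protease ADAMTS20 by 0.86 and the receptor PDGFRA by 0.89. PDGFRA is in the mesenchymal marker list. In that list 4 of 18 tested genes rose and 1 fell (0 and 1 without the pairing and with 1 library left out).

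The arm differences of the arrest were next set beside those after release, from libraries of 3, 6, 8, 10, 12 and 14 h. These 24 libraries share none with 0 h, though whether libraries of 1 replicate number come from 1 culture series is not given in the sources used here. As the mean over these times, 3880 genes were higher (26.7%) and 3782 lower (26%). Of the 1443 genes called at 0 h, 1438 had the same sign as this mean (99.7%, against 75.4% of all genes tested), and 1400 were called in the same direction (666 higher and 734 lower). None was called in the opposite direction. These 1400 make up 18.3% of the 7662 genes called at 3 to 14 h. The mean draws on 24 libraries and 0 h on 4, so their counts of calls are not of like power. Taken singly, with 4 libraries each, the later times had 784 (3 h) to 1418 (6 h) genes higher. Lower at these single times were 866 (3 h) to 1698 (6 h) genes. The genes called higher at 0 h had medians of 0.62 then and 0.54 later, and those called lower -0.50 and -0.45; genes picked for passing at 0 h have values there that are raised by that choice. The 5 genes of the other sign were KANK2, ZNF219, DKFZP564C196, APLN and LOC729683, named because of their values. No gene was called in the test of 0 h against the mean of 3 to 14 h (0% of genes tested), in which 869 genes had an unadjusted p under 0.05. DESeq2 called 4 there: C11orf96, CDT1, CHRM1 and GRIA2.

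**Figure D4:**
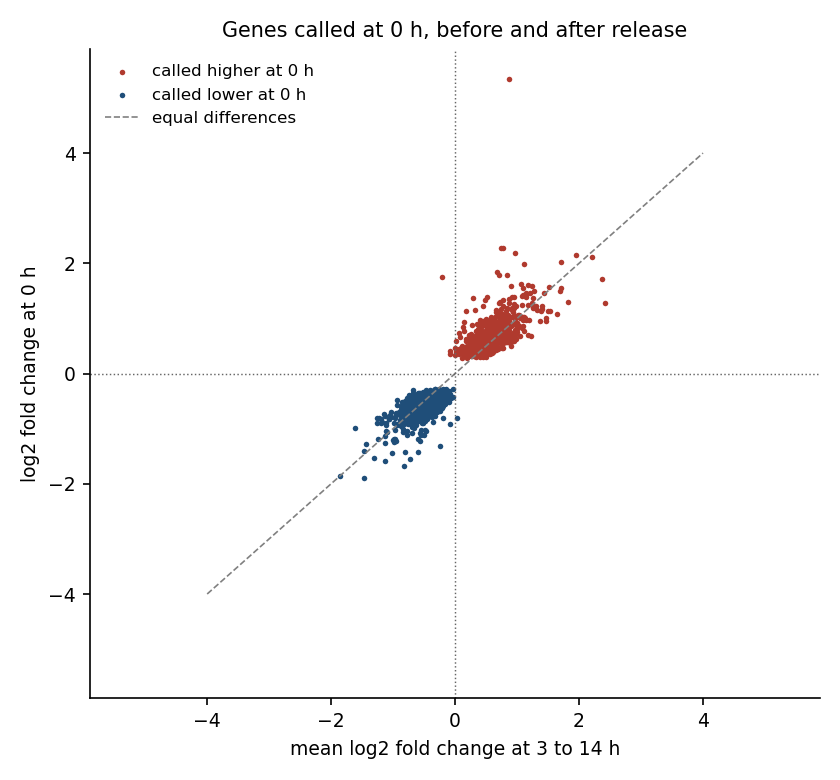
Log2 fold change at 0 h (y axis) against the mean log2 fold change at 3 to 14 h (x axis) for the 1443 genes called at 0 h; red points were called higher and blue points lower at 0 h, and the dashed line marks equal differences. The points lie in the upper right and lower left but for 5 genes near the vertical line.

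Set against single later times, the arrest differed from 14 h in 32 genes (0.22%) and from 6 h in 4 (0.0275%), and from 3, 8, 10 and 12 h in none; edgeR gave 1659, 261, 1020 and 491 genes at an unadjusted p under 0.05 for these 4 times, and no other tool was run on them. This split into single times was chosen after the values were seen. All 32 genes were less low, or higher, in Tet plus cells at 0 h than at 14 h. They included 14 of the replication and G1/S list and 8 histone rows, and their median difference between the arms was -0.08 at 0 h and -1.02 at 14 h. DTL, which directs destruction of the licensing factor CDT1, differed by -0.16 (SE 0.112) at 0 h and by -1.44 (SE 0.115) at 14 h. E2F8, an E2F repressor, differed by 0.24 and -1.12, E2F2 by -0.06 and -1.13, CDT1 by 0.11 and -0.95, and thymidine kinase TK1 by -0.09 and -1.09. MCM3, also among the 32 (adjusted p = 0.0496), was lower by 0.89 at 0 h and by 1.56 at 14 h. The count of 32 fell to 2 without the pairing, to 3 without replicate 1 and to 11 without replicate 2. At 6 h, SUN2, a nuclear envelope protein, differed by -0.09 against 0.95 at 0 h, where its call ended without the pairing (0.0768).

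**Figure D5:**
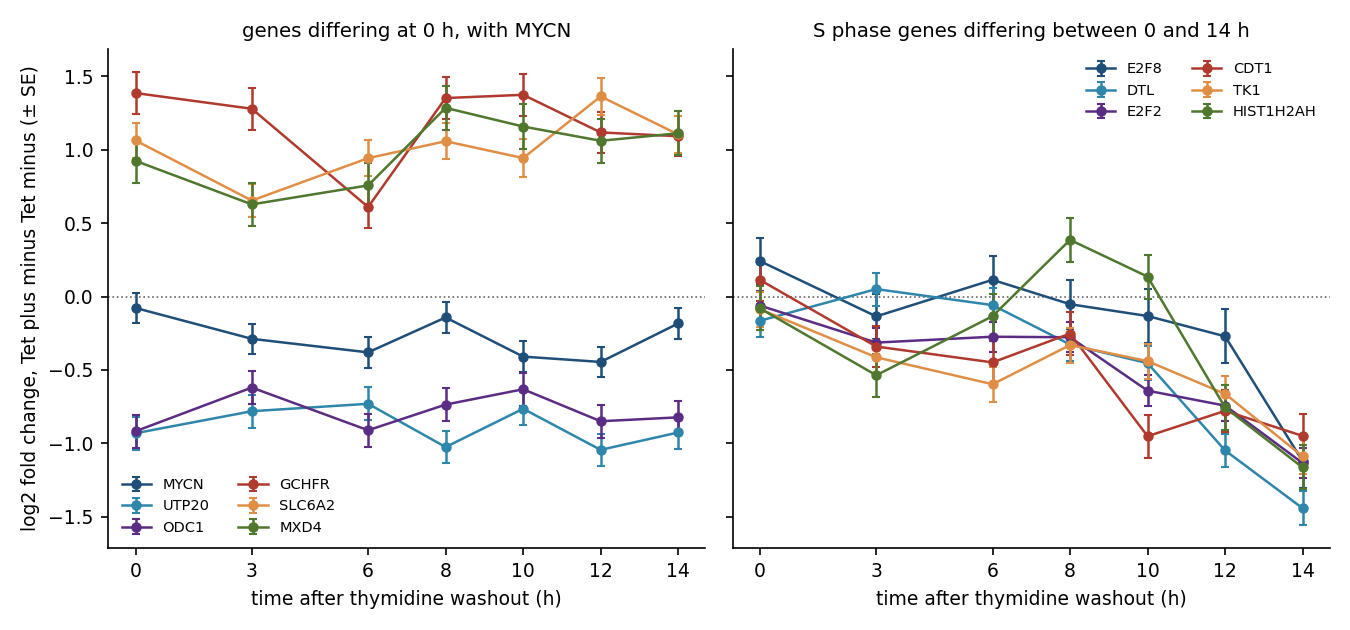
Log2 fold change, Tet plus minus Tet minus, with its SE (y axis) at 0 to 14 h after washout (x axis) for MYCN and 5 genes called at 0 h (left) and for 6 S phase genes (right). UTP20 and ODC1 stay below 0 and GCHFR, SLC6A2 and MXD4 above it at all 7 times, while the S phase genes lie near 0 at 0 h and between -0.95 and -1.44 at 14 h.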

How the data were processed

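The deposited table holds raw read counts per gene and ERCC transcript for 44 libraries of total RNA, depleted of ribosomal RNA and made into directional libraries per the labels' protocols. The authors used TopHat2 2.0.5, HTSeq and hg19 per the submitters' processing notes; its annotation and strand setting are not given in these sources. The 92 ERCC rows entered neither library sizes nor tests of genes, and 14534 of 23367 gene rows passed filterByExpr. The test was edgeR's quasi-likelihood test (version 4.0.16, R 4.3.3, TMM scaling), fitting a mean for each of 22 groups plus replicate number within each time as a block, all 44 libraries, 11 residual degrees of freedom, Benjamini-Hochberg adjustment and a threshold of 0.05. SEs are the log2 fold change over the root of F, and log2 CPM values use a prior count of 2. The pairing comes from the titles, which give both arms the same lane at each time to 14 h. Across 10119 genes the replicate differences of the arms correlated at 0 h (r = 0.635) and at each time to 14 h (lowest r 0.375). At 16 to 22 h this r was 0.268 to 0.668. The series calls the 2 libraries of a group biological replicates, and their counts at 0 h differed beyond counting noise (chi-square 36.8 and 27.1 per gene). Tet plus libraries of 16 to 22 h were on other lanes than the Tet minus libraries they were blocked with. They entered no contrast given here, but they did enter the shared spread and the residual degrees of freedom.

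Named genes were the MYC network, up to 15 highest and lowest of the calls that held at an average log2 CPM of 3 or more (10 and 15 given), and up to 4 called members of each list by adjusted p. Genes outside this rule (DDX1, NBAS, SUN2, GTF3A, GTF3C6, POLR3GL and those of the comparisons with single times) were chosen after their values were seen. Members and lists were chosen with earlier results of these data known. Lists have counts and medians and no test. Alternatives were other blocks, library subsets, scalings, filters, DESeq2 1.42.0 and leaving out each 0 h library. Intervals use the residual degrees of freedom. Steps were tested on simulated data. RefSeq promoters (GRCh38.p14) were matched by symbol or synonym; no coordinate was converted. A gene that the rule named is not reported here.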

Additional observations from a re-analysis of the deposited data

Results flagged for a closer look

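The arm difference differed between times in 2 of the 6 single comparisons, by a test of the difference itself in the edgeR model of all 44 libraries. These comparisons were chosen after the values were seen, and each was adjusted over its own genes.

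Against 14 h, 32 genes differed. The 12 highest differences (0 h minus 14 h) among genes whose log2 CPM averaged at least 3 over 0 to 14 h were those of E2F8 (1.36, SE 0.241, adjusted p = 0.0192), HIST1H2AB (1.32), ZNF367 (1.30), DTL (1.28, SE 0.160, adjusted p = 0.0011), HIST1H2AH (1.08), E2F2 (1.07, SE 0.145, adjusted p = 0.00153), HIST1H2AM (1.06), CDT1 (1.06), HIST1H2BO (1.05), HIST1H2AG (1.02), HIST1H3D (1.02) and TK1 (1.00). Of the 32, 6 were called at 0 h and all 32 at 14 h, where values ran from -1.56 to -0.40. Histone rows share sequence, and their single values are uncertain to that extent. The libraries of 0 h were on other lanes than those of 14 h.

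Against 6 h, 4 genes differed, on the same lanes as 0 h. The difference (0 h minus 6 h) was 1.23 for C11orf96 (SE 0.166, adjusted p = 0.00487), 1.04 for SUN2 (adjusted p = 0.0132), 0.93 for ZNF787 (adjusted p = 0.0261) and -1.02 for GRIA2 (adjusted p = 0.0304). C11orf96 and GRIA2 were also among the 4 genes that DESeq2 called at 0 h against the mean of 3 to 14 h.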

How the results depend on the processing

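Without the replicate block the counts fell to 82 higher and 146 lower and the 14 h count to 2; with the block as 1 term over all times the 14 h count was 19. The 4 libraries fitted alone gave 0 higher and 0 lower without the block, and 1042 higher and 932 lower with it. ERCC scaling over all libraries gave 1 higher, 0 lower and 0 at 14 h, while the ribosome assembly genes kept a median of -0.4959 at 0 h. ERCC scaling of the 4 libraries alone, an alternative added later, gave 172 higher and 443 lower. DESeq2 called 56 genes at 14 h and 4 in 0 h against the mean of 3 to 14 h. With 1 library of 0 h left out, 82 to 122 genes were higher, 68 to 156 lower, and 3 to 11 differed from 14 h; MYCN lay between -0.11 and -0.04. The other fits of these counts stayed within 1.5 times. The cause was not tested.

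Among uncalled values near 0, MNT changed sign without the block (0.027), with the 1-term block (0.044), in the 4 libraries alone (0.042 without and 0.000959 with the block) and between left-out libraries (-0.36 to 0.34), MLX between left-out libraries (-0.13 to 0.063), and NBAS with the 4 libraries scaled to ERCC (-0.0034) and between left-out libraries (-0.029 to 0.13). No other named gene changed direction in any fit, though 390 of 1402 alternative values of named genes lost their call. No list median changed sign with DESeq2's size factors, and 1 of 45 did with each ERCC scaling (Schwann cell markers, immediate early genes). Depth limits the genes of a few CPM, such as MYC.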
